A study of Mus musculus with 8 samples.

Results

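The genes described here encode the enzymes and regulators that make fatty acids, lengthen and desaturate them, join them to glycerol and, for a smaller group, oxidise them. They were taken by symbol from a list of 35 genes, and all 35 were among the 23337 gene symbols measured. The RNA came from MOE cells, an established line of mouse oviductal epithelium on the FVB background. Cells were kept for 6 h on 3D collagen gels (4 libraries) or on 2D collagen (4 libraries). Both groups were the same line, taken at confluence with trypsin and plated in MOE medium from which EGF was left out, so they differed by substrate alone as far as the labels say. Only 1 line was used. The labels do not say whether the 4 libraries of a substrate were separate cultures, so the spread behind each p-value may be technical.

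Cells make fatty acids from citrate that leaves the mitochondrion and is split into acetyl-CoA. Acetyl-CoA carboxylase turns this into malonyl-CoA, and fatty acid synthase builds palmitate from it. Desaturases and elongases then reshape the chain, acyl-CoA synthetases activate it, and acyltransferases, lipins and diacylglycerol acyltransferases build triglyceride and phospholipid precursors. The pathway is controlled by the transcription factor SREBP1, by the sugar-sensing factors MondoA and ChREBP, and, for a shared set of genes, by the cholesterol-regulated factor SREBP2.

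On 3D collagen, the mRNAs of fatty acid synthase (Fasn) and of the desaturases Fads2 and Fads3 fell to less than the level in any 2D library, and the mRNA of long-chain acyl-CoA dehydrogenase (Acadl), an enzyme of fatty acid oxidation, rose. The other 30 genes tested did not pass the threshold in limma, among them both acetyl-CoA carboxylases, ATP citrate lyase, both stearoyl-CoA desaturases and Srebf1. The test was limma on log2(normalized count + 1), where a normalized count is the number of reads divided by the size factor of the library. The threshold was a Benjamini-Hochberg adjusted p under 0.05 over all genes tested, and a gene was tested if 4 or more libraries reached 10 normalized counts. Acadl lay at the threshold, with a limma adjusted p of 0.04996. Of 22 alternative fits, described below, Fasn passed in 14, Fads2 in 21, Fads3 in 18 and Acadl in 7. Of the 35 genes 34 were tested. Mlxipl, which encodes ChREBP, had 0 to 3 reads per library and was left out. Of the 34, 3 were lower (8.82%), against 3.39% of the 11820 genes tested, and 1 was higher (2.94%), against 2.33%. In either direction the share was 11.8%, against 5.72% of all genes tested. The median log2 fold change was −0.06 for the 34 genes and 0.02 for all genes tested. Values of the 2 substrates did not overlap for 8 of the 34 genes (23.5%), against 18.4% of all genes tested. Of these 8, 6 were lower (10.4% of all genes tested were lower without overlap) and 2 higher (8.05%). In bulk RNA, fewer cells that express a gene and less of its RNA per cell cannot be told apart.

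**Figure D1:**
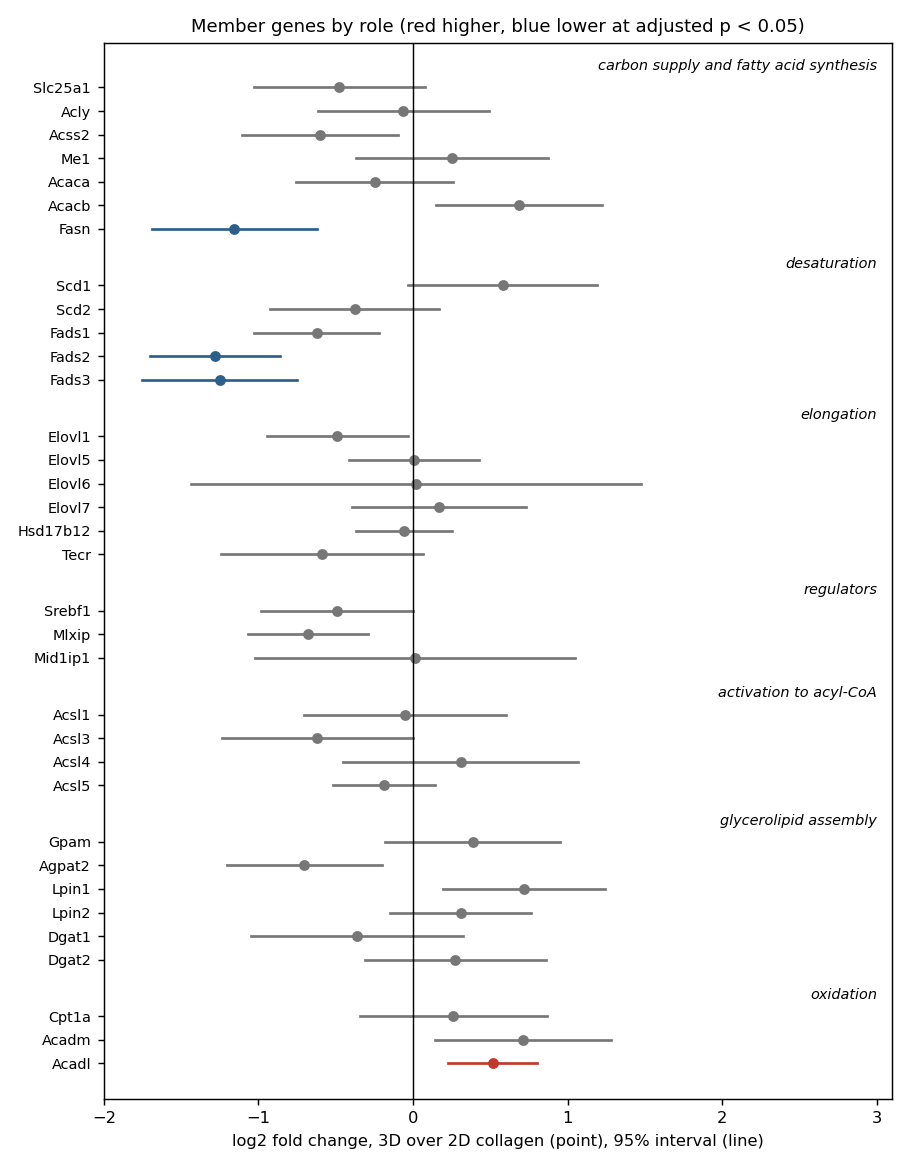
The horizontal axis gives the log2 fold change of each tested gene, 3D over 2D collagen, as a point with its 95% interval as a line (limma, 4 libraries per substrate), and genes are grouped by role. Fasn, Fads2 and Fads3 (blue) lie to the left of 0 and Acadl (red) to the right, and the interval of Elovl6 is the widest of the 34.

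Libraries held 15692699 to 25862036 counted reads, which touched 14064 to 14598 genes. Depth limits only the rarest of the genes described here, since 33 of the 34 had at least 60 reads in every library and Elovl6 had 14 to 147. Of the epithelial markers, the keratins Krt7, Krt8, Krt18 and Krt19 were abundant (684 to 5209.9 CPM, reads scaled to library size, over the 8 libraries), while Epcam and Cldn7 stayed at or below 1.26 and Cdh1 at or below 5.23. The 8 epithelial genes summed to 8009 to 10126 CPM on 3D and 9992 to 11298 on 2D collagen, and 1 of the 6 tested fell, Krt8 (log2 fold change −0.76, limma adjusted p = 0.0397). The oviductal transcription factor Pax8 had 441 to 566 CPM, and the secretory product Ovgp1 at most 1.37. Adipocyte markers were near 0: the sum over 7 genes was 0.659 to 1.59 CPM on 3D and 0.503 to 1.21 on 2D collagen, Plin1 had no read, and Adipoq did not exceed 0.05. Liver transcripts (7 genes) summed to 0.163 to 28.2 CPM on 3D and 2.02 to 22.3 on 2D collagen, highest in 3D replicate 1 and 2D replicate 2. Intestine transcripts (10 genes) summed to 1.57 to 12.3 on 3D and 1.92 to 21.1 on 2D collagen, highest in 3D replicates 1 and 2 and 2D replicate 2. Both sums overlapped between the substrates. So did those of the oviduct (644 to 742 CPM on 3D and 601 to 773 on 2D collagen), fibroblast (4.24 to 17.4 and 3.44 to 19.5), leukocyte (122 to 256 and 115 to 169) and endothelium lists (17.5 to 39.5 and 14.6 to 29.9). Most of the leukocyte sum came from Cd14 (93.7 to 224 CPM over the 8 libraries), while Ptprc did not exceed 0.21, Cd3e 0.101 or Lyz2 0.255. Nearly all of the endothelium sum came from Kdr (14.1 to 37.9 CPM), while Pecam1 did not exceed 0.424 or Tie1 0.0637. Of the 3 fibroblast genes tested 1 rose, the growth factor receptor Pdgfra, at 0.838 to 0.978 CPM on 3D and 0.116 to 0.382 on 2D collagen (log2 fold change 1.73, limma adjusted p = 0.0340). Both ranges lie near 0, so few reads stand behind this call. The part of any of these transcripts in the results was not tested. When libraries were scaled by size alone, the median over all genes shifted by 0.17 (log2), and 39.0% of the called genes were then lower, against 59.3% in the scaling used here. The calls of Fasn, Fads2, Fads3 and Acadl passed under both.

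Levels per length spanned a wide range. Per kilobase of annotated exon, the most abundant transcript was Mid1ip1, whose product promotes the assembly of acetyl-CoA carboxylase into active filaments, with 15839 normalized counts per kb on 3D and 15618 on 2D collagen, within the top 0.282% of all genes tested. Acly (3525 and 3754), Scd2 (2792 and 3679), Tecr (2410 and 3751) and Slc25a1 (2243 and 3167) came next, each pair given for 3D and then 2D collagen. Fads1, Fasn and Fads2 stood at 1466, 984 and 869 normalized counts per kb on 3D collagen, against 2264, 2248 and 2147 on 2D collagen. Per length these 3 levels lay close together on 2D collagen and further apart on 3D collagen. At the low end lay Acaca (24.7 on 3D and 29.3 on 2D collagen), Elovl6 (11.8 and 15.5) and Acacb (15.2 and 9.57), ranked 76.6% or further from the top of the genes tested. The annotated exons of Acaca cover 17074 bases over all its isoforms, which lowers its value per kb.

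**Figure D2:**
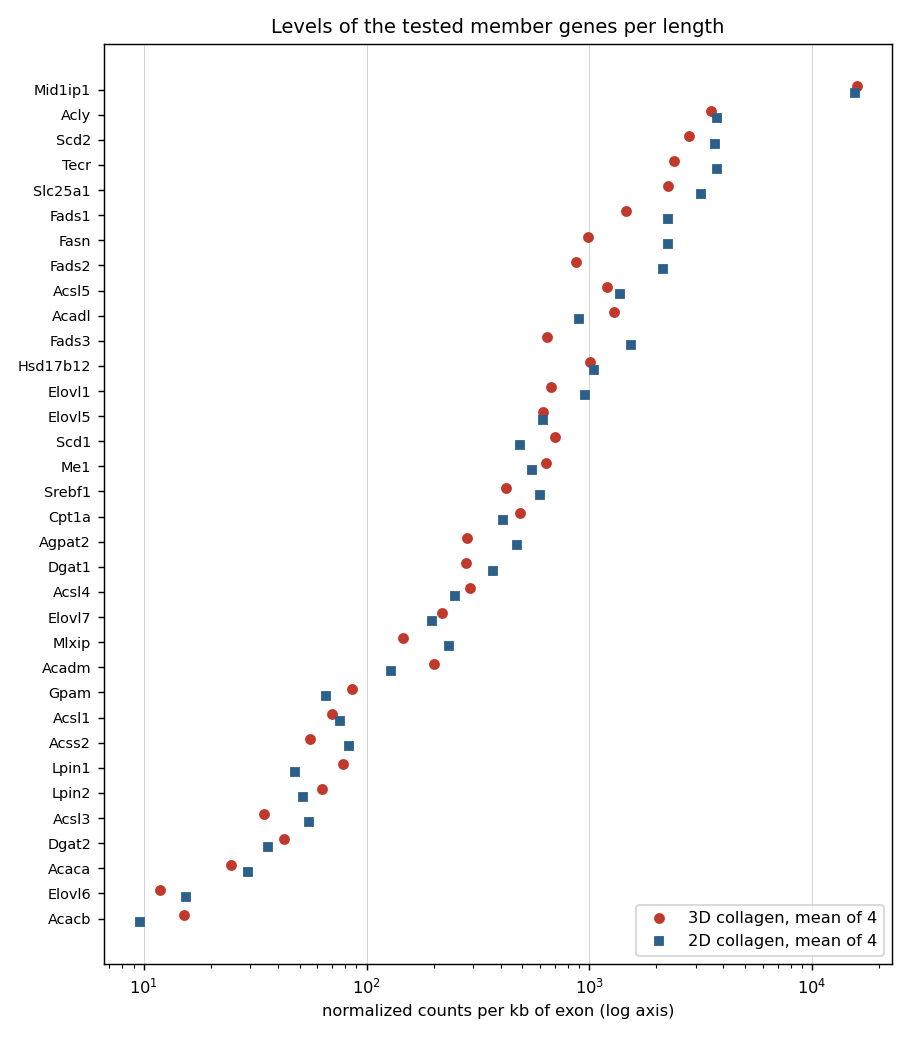
The horizontal log axis gives the mean normalized count per kb of exon on 3D collagen (red circles) and 2D collagen (blue squares), 4 libraries each, for the 34 tested genes in order of their level. Mid1ip1 stands apart at the top, and the gap between the substrates is widest for Fasn, Fads2 and Fads3 among the abundant genes.

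Of the 7 genes that supply carbon and reducing power and build the chain, 1 fell and none rose, where 3.39% of all genes tested were lower and 2.33% higher. Fatty acid synthase, the single polypeptide that builds palmitate, is encoded by Fasn (chromosome 11, 120805846 to 120824547, mm10). Its normalized count was 11795, 12868, 9219 and 9216 in the 3D libraries, against 16247, 33342, 21552 and 27282 in the 2D libraries. Every 3D library was below every 2D library, and the 2D libraries were the more spread. The means were 10775 ± 1850 on 3D and 24606 ± 7364 on 2D collagen (SD, n = 4 each), a log2 fold change of −1.16 (SE 0.24, 95% interval −1.69 to −0.62, limma adjusted p = 0.0258). The highest 2D value was in replicate 2, where intestine transcripts were also highest, and without that library the log2 fold change was −0.99 (limma adjusted p = 0.0347). The call was lost, with log2 fold changes from −1.25 to −1.09, without 2D replicate 3 (limma adjusted p = 0.0525) or 4 (0.0579), or without 3D replicate 1 (0.0660), 2 (0.0613), 3 (0.0978) or 4 (0.0554).

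ATP citrate lyase (Acly), the enzyme that splits citrate, was the most abundant of these 7 per length. It had 21370, 21867, 16859 and 14335 normalized counts on 3D and 19295, 21304, 26138 and 12528 on 2D collagen. The groups overlapped, with a log2 fold change of −0.06 (95% interval −0.62 to 0.49), an interval that does not reach the estimate for Fasn. The citrate carrier Slc25a1 averaged 4853 ± 1061 on 3D and 6854 ± 2176 on 2D collagen (log2 fold change −0.48, limma adjusted p = 0.272). Acss2, which makes acetyl-CoA from acetate, averaged 563 ± 144 and 851 ± 173 (−0.60, limma adjusted p = 0.145), and antisense gene models cover 9.12% of its exonic bases. It passed only with the replicate block and GC correction together (limma adjusted p = 0.0283). The NADPH source Me1 averaged 2446 ± 477 and 2125 ± 706 (0.25, limma adjusted p = 0.618).

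The acetyl-CoA carboxylases differed in direction, and neither passed. Acaca, the cytosolic form that feeds synthesis, averaged 422 ± 94.997 on 3D and 501 ± 111 on 2D collagen, a log2 fold change of −0.25 (95% interval −0.75 to 0.26, limma adjusted p = 0.544). Acacb, the mitochondria-bound form whose malonyl-CoA restrains fatty acid entry for oxidation, had 152, 162, 145 and 128 normalized counts on 3D, against 89.6, 83.6, 122 and 73.5 on 2D collagen. Every 3D library was above every 2D library, and the log2 fold change was 0.68 (SE 0.24, 95% interval 0.15 to 1.22, limma adjusted p = 0.124). It passed only after trends with transcript GC content were removed, alone or with the replicate block.

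Desaturases put double bonds into the chain, and 2 of the 5 fell, beside 3.39% of all genes tested. Fads1 and Fads2 encode the desaturases that make long polyunsaturated fatty acids from dietary precursors, and Fads3 encodes a relative reported to act on sphingoid bases. The genes lie together on chromosome 19 (mm10), Fads3 at 10041569 to 10060110, Fads2 at 10062765 to 10101746 and Fads1 at 10182888 to 10196877. The cluster spans 155.3 kb, with 2.7 kb between Fads3 and Fads2, and none of the 3 genes overlaps exons of another gene model.

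Fads2 had 2867, 3089, 2439 and 3063 normalized counts on 3D, against 5323, 8997, 6167 and 7812 on 2D collagen. All 3D libraries lay close together and below the lowest 2D library. The means were 2865 ± 300.2 and 7075 ± 1647 (SD, n = 4 each), a log2 fold change of −1.28 (SE 0.19, 95% interval −1.70 to −0.86, limma adjusted p = 0.00759). Fads2 passed without any single library, at limma adjusted p from 0.0102 to 0.0400. It did not pass when 3 libraries were left out together, those with the most intestine transcripts (log2 fold change −1.22, limma adjusted p = 0.101), a fit on 5 libraries in which 0 genes of all tested were higher and 14 lower.

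Fads3 had 3284, 2386, 2183 and 1905 normalized counts on 3D, against 4899, 8083, 4837 and 5443 on 2D collagen. The groups did not overlap, and 2D replicate 2 was again the highest. The means were 2440 ± 597 and 5816 ± 1536, a log2 fold change of −1.25 (SE 0.22, 95% interval −1.75 to −0.75, limma adjusted p = 0.0167). Without 2D replicate 2 it was −1.08 (limma adjusted p = 0.0204), and the call was lost without 3D replicate 2 (−1.25, limma adjusted p = 0.0592) or 3 (−1.21, 0.0670). Fads1 had 8312, 7577, 6491 and 5841 normalized counts on 3D, against 8947, 13279, 11405 and 9945 on 2D collagen. Its groups did not overlap either, and its log2 fold change of −0.62 (SE 0.18, 95% interval −1.03 to −0.22, limma adjusted p = 0.0727) did not pass. Fads1 passed in DESeq2 (adjusted p = 0.0163) and with the GC correction (limma adjusted p = 0.0293).

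**Figure D3:**
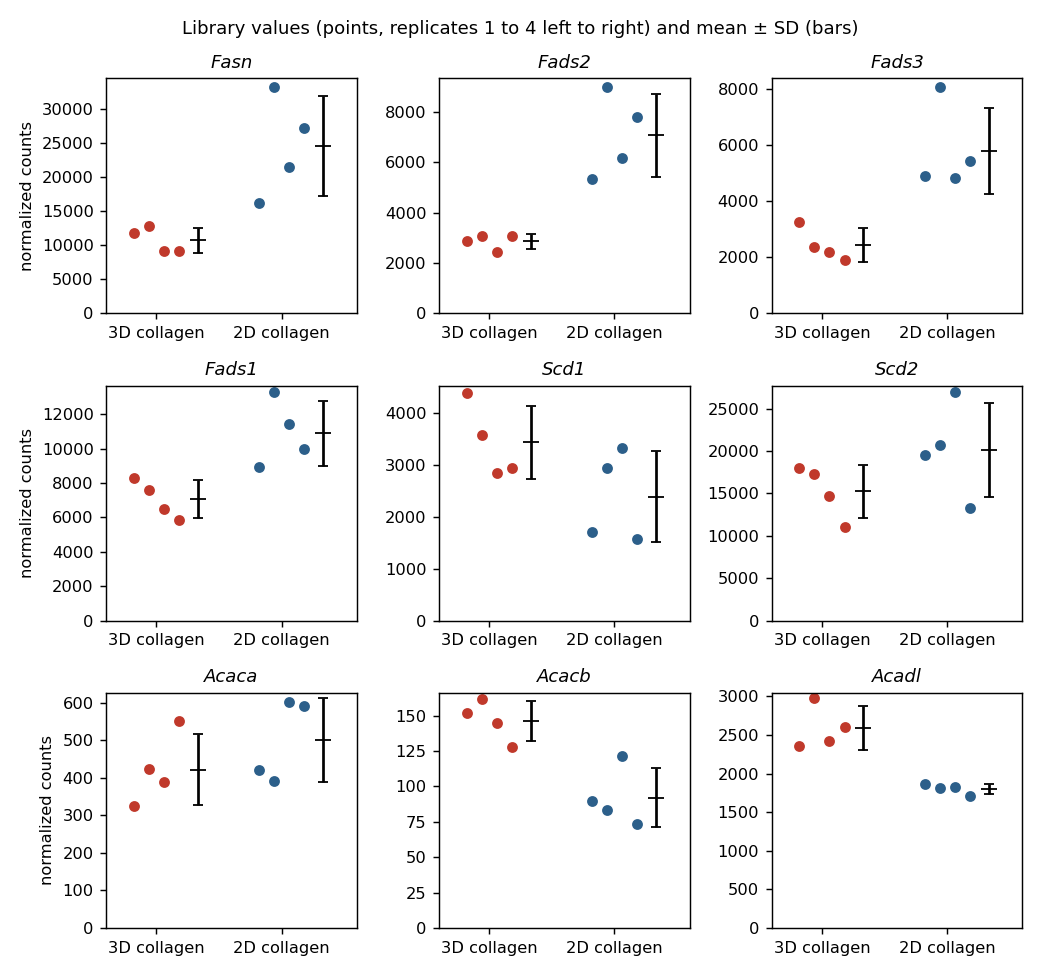
Each panel gives normalized counts on a linear axis from 0 for 1 gene, with a point for each library on 3D collagen (red) and 2D collagen (blue) and the mean ± SD (n = 4) in black. The substrates do not overlap for Fasn, Fads2, Fads3, Fads1, Acacb and Acadl, and they overlap for Scd1, Scd2 and Acaca.

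Stearoyl-CoA desaturases make oleate and palmitoleate. Scd1 and Scd2 together span 114.2 kb of chromosome 19, and how reads that match both of these close paralogs were counted is not given in the sources used here. Scd2 had 17964, 17243, 14722 and 11097 normalized counts on 3D and 19564, 20654, 26902 and 13282 on 2D collagen (log2 fold change −0.38, 95% interval −0.92 to 0.17, limma adjusted p = 0.378). Scd1 had 4389, 3574, 2852 and 2936 on 3D and 1714, 2950, 3324 and 1569 on 2D collagen (0.58, 95% interval −0.03 to 1.19, limma adjusted p = 0.227). Both overlapped between the substrates. Per length, Scd2 exceeded Scd1 on both, at 2792 against 703 normalized counts per kb on 3D and 3679 against 488 on 2D collagen. The counts of the other members of that family, Scd3 and Scd4, came to 7 and 15 reads over all 8 libraries.

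The windows around the start sites of the genes that passed are shown because SREBP factors are known to act with NF-Y, which binds CCAAT, and with SP1, which binds GC boxes. Each runs 5′ to 3′ on the gene's strand, from 250 bases before the start to 50 after it counting the start itself (RefSeq, GRCm38.p6), and capitals mark CCAAT or GGGCGG on either strand. The windows are Fasn at chr11:120824498-120824797 (minus strand), Fads2 at chr19:10101454-10101753 (minus), Fads3 at chr19:10041298-10041597 (plus) and Acadl at chr1:66863260-66863559 (minus).
Fasn: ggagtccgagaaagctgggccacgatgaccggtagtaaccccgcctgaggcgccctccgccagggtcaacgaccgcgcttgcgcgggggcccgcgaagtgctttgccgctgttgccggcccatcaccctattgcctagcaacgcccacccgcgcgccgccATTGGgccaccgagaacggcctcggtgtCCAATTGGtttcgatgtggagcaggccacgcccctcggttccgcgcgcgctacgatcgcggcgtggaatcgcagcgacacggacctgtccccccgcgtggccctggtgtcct
Fads2: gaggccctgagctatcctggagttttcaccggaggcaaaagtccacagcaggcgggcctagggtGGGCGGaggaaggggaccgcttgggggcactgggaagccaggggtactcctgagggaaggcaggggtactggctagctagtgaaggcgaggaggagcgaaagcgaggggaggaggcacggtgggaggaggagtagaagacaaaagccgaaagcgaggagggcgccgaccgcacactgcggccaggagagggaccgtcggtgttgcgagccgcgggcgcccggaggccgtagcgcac
Fads3: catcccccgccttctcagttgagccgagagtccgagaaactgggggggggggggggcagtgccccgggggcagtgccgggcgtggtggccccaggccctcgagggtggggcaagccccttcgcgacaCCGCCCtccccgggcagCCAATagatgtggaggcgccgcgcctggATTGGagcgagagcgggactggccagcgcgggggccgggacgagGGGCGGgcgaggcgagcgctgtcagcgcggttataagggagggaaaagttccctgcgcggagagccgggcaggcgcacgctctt
Acadl: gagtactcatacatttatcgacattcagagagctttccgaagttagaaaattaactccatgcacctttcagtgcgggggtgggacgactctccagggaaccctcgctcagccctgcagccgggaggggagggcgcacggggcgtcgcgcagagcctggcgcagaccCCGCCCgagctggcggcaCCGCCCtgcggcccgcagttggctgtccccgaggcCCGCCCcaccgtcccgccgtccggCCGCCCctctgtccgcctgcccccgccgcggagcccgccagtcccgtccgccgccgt
The Fasn window holds 3 CCAAT boxes, at 90, 62 and 59 bases before the start, the last 2 overlapping on opposite strands, and no GGGCGG. The Fads3 window holds 2 CCAAT boxes and 2 GC boxes. The Fads2 window holds 1 GC box and the Acadl window 4, and neither holds CCAAT. The gene model used for the position of Fads2 begins further upstream, at 10101746, so nearly all of its window lies inside that model. Bases before that other start were hardly searched. Of the 35 genes, 30 had an entry, with 39 windows in all. CCAAT was in 21 of these windows (53.8%), against 37.4% of all 32851 windows in the table, and GGGCGG in 25 (64.1%), against 35.7%. The sterol regulatory element TCACNCCAC, searched on both strands, was in 2 windows (5.13%, Mlxipl and Acsl1), against 1.24% of all, and the E-box CACGTG in 4 (10.3%), against 7.15%. The nuclear receptor repeats known as the DR4 and DR1 elements were in none of the 39 and in 0.0152% and 0.0396% of all windows. None of the last 4 sequences was in the windows of the 4 genes that passed. Only these letter patterns inside these windows were searched, so a missing match does not show that a site is absent. A match describes letters only, and the table holds windows of non-coding genes as well.

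Elongation adds carbons in a cycle of 4 enzymes, and none of the 6 genes passed in limma. Tecr, the reductase that closes the cycle, was the most abundant per length. It had 7291, 4781, 5126 and 3923 normalized counts on 3D and 6319, 13708, 6644 and 6207 on 2D collagen (log2 fold change −0.59, 95% interval −1.24 to 0.07, limma adjusted p = 0.254). Only 2D replicate 2 stood apart, and the other values overlapped. Hsd17b12, the reductase earlier in the cycle, was nearly the same on both substrates, at 2411 ± 218 and 2512 ± 259, with a log2 fold change of −0.06 (95% interval −0.37 to 0.25). Elovl5, which lengthens polyunsaturated chains made by the Fads enzymes, averaged 2171 ± 311 on 3D and 2182 ± 460 on 2D collagen (0.01, 95% interval −0.41 to 0.43). Elovl1, for very long saturated chains, and Elovl7 had log2 fold changes of −0.49 and 0.17 (limma adjusted p = 0.179 and 0.730). Elovl6, which lengthens palmitate to stearate, had 80.4, 64.6, 59.7 and 99.7 normalized counts on 3D and 143, 16.7, 70.4 and 168 on 2D collagen. Its 2D libraries reached below and above the range of the 3D libraries, with 2D replicate 3 inside it. The interval, −1.43 to 1.48, leaves the direction unknown.

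None of the 3 regulators tested passed in limma. Srebf1, which encodes SREBP1 and whose isoforms are counted together here, had 2900.2, 2584, 2212 and 1791 normalized counts on 3D and 2751, 4751, 3188 and 2786 on 2D collagen (log2 fold change −0.49, 95% interval −0.99 to 0.00, limma adjusted p = 0.208). Only 3D replicate 1 reached into the 2D range. Mlxip, which encodes MondoA, had 1440.5, 1281, 1074 and 1069.9 on 3D, against 1658, 2234, 2272 and 1648 on 2D collagen. Its groups did not overlap, and its log2 fold change of −0.68 (SE 0.17, 95% interval −1.06 to −0.29, limma adjusted p = 0.0527) lay just outside the threshold. It passed in DESeq2 (adjusted p = 0.00846), with the stricter filter, with the replicate block and after the GC trends were removed. Mid1ip1 had 50671, 33038, 36995 and 14119.6 on 3D and 44489.6, 27809, 45889 and 14756.5 on 2D collagen (0.02, 95% interval −1.02 to 1.05). The libraries numbered 4 were the lowest on both substrates, and the antisense gene model Gm14493 covers 25.5% of the exonic bases of Mid1ip1.

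Acyl-CoA synthetases activate free fatty acids, and none of the 4 passed in limma. Acsl5, the most abundant per length, had 5799, 5351, 5673 and 6536 normalized counts on 3D and 6191, 6668, 5891 and 7936 on 2D collagen (log2 fold change −0.19, 95% interval −0.52 to 0.14), and its groups overlapped. Antisense exons of Zdhhc6 cover 8.31% of its exonic bases. Acsl4, which prefers arachidonate, averaged 1567 ± 362 and 1350 ± 612 (0.31, limma adjusted p = 0.622), and Acsl1 averaged 733 ± 142 and 795 ± 273 (−0.05, limma adjusted p = 0.931). Acsl3, tied to lipid droplet growth, averaged 151 ± 26.4 and 239 ± 79.9 (−0.62, limma adjusted p = 0.204), and it passed only after the GC trends were removed, alone or with the replicate block.

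In glycerolipid assembly none of the 6 genes passed in limma, while DESeq2 called Agpat2 lower (adjusted p = 0.0334) and Lpin1 higher (adjusted p = 0.0440). Agpat2 also passed with the GC correction (limma adjusted p = 0.0482) and Lpin1 with library size scaling (limma adjusted p = 0.0406). The first acyltransferase Gpam averaged 573 ± 147 on 3D and 438 ± 115 on 2D collagen (log2 fold change 0.39, limma adjusted p = 0.388). Agpat2, which adds the second chain and was the most abundant of the 6 per length, had 699.9, 588, 618 and 503 normalized counts on 3D, against 783, 1509.9, 919 and 832 on 2D collagen. Its groups did not overlap (−0.70, SE 0.22, limma adjusted p = 0.0963). Lpin1, a phosphatidate phosphatase that can also act as a transcriptional coactivator, averaged 759 ± 188 and 460 ± 110 (0.72, SE 0.23, limma adjusted p = 0.102), and 1 of its 3D libraries, at 585, was below the highest 2D library, at 609.8. Its relative Lpin2 averaged 769 ± 77.9 and 636 ± 168 (0.31, limma adjusted p = 0.389). The enzymes of the last step of triglyceride synthesis, Dgat1 and Dgat2, had log2 fold changes of −0.36 (95% interval −1.05 to 0.32) and 0.27 (−0.31 to 0.86).

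Of the 3 oxidation genes 1 rose, beside 2.33% of all genes tested. All 3 log2 fold changes were above 0, as were those of 6082 of the 11820 genes tested. Acadl (chromosome 1, 66830839 to 66863277, mm10) had 2351, 2981, 2419.8 and 2596 normalized counts on 3D, against 1866, 1816, 1822 and 1715 on 2D collagen. The groups did not overlap, and the 2D libraries were tightly placed. The means were 2587 ± 282 and 1805 ± 64.1 (SD, n = 4 each), a log2 fold change of 0.51 (SE 0.13, 95% interval 0.22 to 0.80). Its limma adjusted p of 0.04996 lay at the threshold, and the call was lost without any single library (limma adjusted p from 0.0628 to 0.147) and in 15 of the 22 alternatives in all. With the GC correction its log2 fold change was 0.35 (limma adjusted p = 0.185). Acadm, the medium-chain dehydrogenase, had 701, 726, 868 and 838 on 3D, against 795, 331, 473 and 414 on 2D collagen (0.71, SE 0.25, limma adjusted p = 0.132). In 2D libraries it was highest in replicate 1, which alone overlapped the 3D range, and Acadm passed without that library (log2 fold change 0.96, limma adjusted p = 0.0307). The gatekeeper of mitochondrial entry, Cpt1a, averaged 3736 ± 1059 and 3142 ± 1044 (0.26, 95% interval −0.34 to 0.86).

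Ratios between family members inside a library do not depend on how libraries are scaled, and 6 were compared. The log2 ratio of Scd1 over Scd2 was −2.15 ± 0.21 on 3D and −3.10 ± 0.30 on 2D collagen (SD, n = 4 each), a difference of 0.96. Every 3D library was above every 2D library, so Scd1 made up more of the pair on 3D collagen although neither gene passed by itself. Fads1 over Fads2 was 1.29 ± 0.26 and 0.64 ± 0.23, a difference of 0.66. Acaca over Acacb was 1.497 ± 0.42 and 2.43 ± 0.38, a difference of −0.93. These 3 ratios did not overlap between the substrates, and each had p = 0.0286 in the exact two-sided permutation test, the smallest that 4 against 4 libraries allow. Adjusted over the 6 pairs by the Benjamini-Hochberg method it was 0.0571, which does not pass. Since p could go no lower, 3 separated pairs among 6 could not pass, whatever the size of their differences. The differences for Acsl3 over Acsl4 (−0.93), Dgat1 over Dgat2 (−0.64) and Lpin1 over Lpin2 (0.41) had exact permutation p of 0.0571, 0.0857 and 0.114 (adjusted 0.0857, 0.103 and 0.114).

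**Figure D4:**
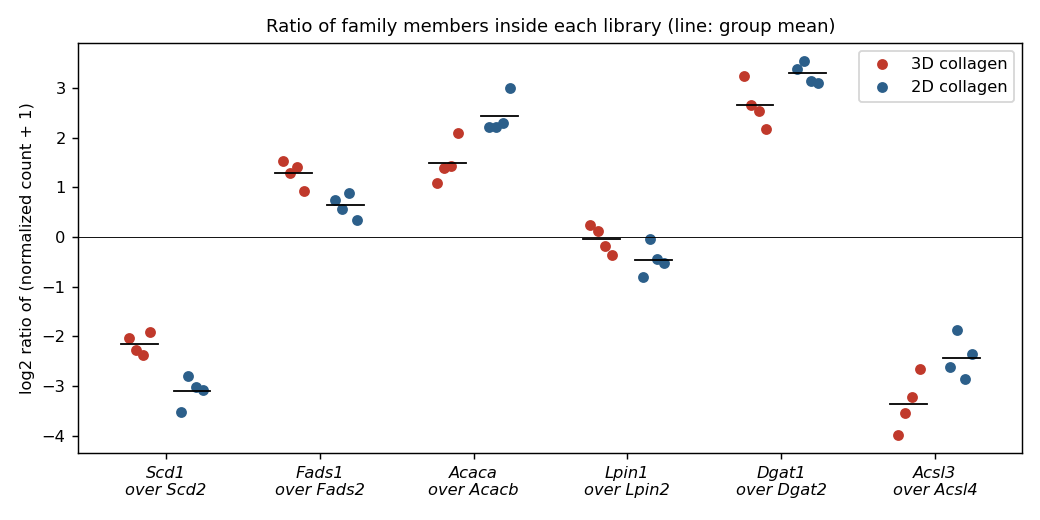
The vertical axis gives the log2 ratio of normalized counts of 2 family members inside each library, with points for 3D collagen (red) left of 2D collagen (blue) and a line at each group mean. The points of the substrates separate for Scd1 over Scd2, Fads1 over Fads2 and Acaca over Acacb.

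The other genes of these pathways were counted in 5 lists. Among SREBP processing and nuclear receptor genes, 3 of 17 tested fell and none rose (17.6%, against 5.72% of all genes; list median −0.07). Insig1 and Srebf2 were among those that fell. Insig1, which retains SREBP in the endoplasmic reticulum and is itself an SREBP target, averaged 235 ± 53.2 normalized counts on 3D and 691 ± 62.9 on 2D collagen (SD, n = 4 each; log2 fold change −1.58, SE 0.21, limma adjusted p = 0.00526). Srebf2, which encodes SREBP2, averaged 5227 ± 1363 on 3D and 12059 ± 3250.5 on 2D collagen (−1.21, SE 0.25, limma adjusted p = 0.0248). Its call was lost without 2D replicate 3 (limma adjusted p = 0.0547) or 3D replicate 1 (0.0529), 2 (0.0555) or 3 (0.0907). The log2 fold changes of Fasn, Fads2 and Fads3 were −1.16, −1.28 and −1.25, and that of Srebf1 was −0.49. The differences between these genes and Srebf2 were not tested. Whether Srebf1 or Srebf2 had a part in the fall of Fasn, Fads2 and Fads3 was not tested either.

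In the glycerolipid and lipid droplet list 1 of 22 tested genes rose and 1 fell (9.09%, against 5.72% of all genes; list median −0.08). Plin5, a perilipin that ties lipid droplets to mitochondria, averaged 63.2 ± 3.77 on 3D and 22.8 ± 8.32 on 2D collagen (log2 fold change 1.49, SE 0.30, limma adjusted p = 0.0245). The microsomal glycerol-3-phosphate acyltransferase Gpat4, listed under its older symbol Agpat6, averaged 3712 ± 213 and 5978 ± 812 (−0.68, SE 0.14, limma adjusted p = 0.0296). Both calls were lost without 2D replicate 3 (limma adjusted p = 0.0588 for Plin5 and 0.0617 for Agpat6), without 3D replicate 1 (0.0708 and 0.0733), 2 (0.0809 and 0.0987), 3 (0.0964 and 0.116) or 4 (0.0527 and 0.0583), and that of Agpat6 without 2D replicate 4 (0.0623).

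Of 25 other oxidation genes tested 1 rose (4.00%, against 2.33% of all genes higher and 5.72% called either way; list median 0.07), the pyruvate dehydrogenase kinase gene Pdk4, whose product turns fuel use from glucose to fatty acids, at 523 ± 67.5 on 3D and 269.95 ± 33.2 on 2D collagen (log2 fold change 0.95, SE 0.18, limma adjusted p = 0.0194). The call was lost without 3D replicate 1 (limma adjusted p = 0.0708) or 2 (0.0750). None of 25 phospholipid synthesis genes passed in limma (list median −0.10; 7 had an unadjusted p under 0.05; edgeR called 0 and DESeq2 2). The most abundant per length, Cdipt, which makes phosphatidylinositol, averaged 3339 ± 617 and 4943 ± 1574 (−0.54, limma adjusted p = 0.186). None of 15 further elongation, desaturation and activation genes passed in limma either (list median 0.11; 3 had an unadjusted p under 0.05; edgeR and DESeq2 called 0). The most abundant of them, G6pdx, the entry enzyme of the NADPH-making pentose phosphate pathway, averaged 18925 ± 3993 and 16281 ± 2253 (0.20, 95% interval −0.23 to 0.64), and exons of Ikbkg cover 13.6% of its exonic bases on the other strand.

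Libraries differed within each substrate in a way many of these genes shared. Among the 3D libraries replicate 4 was the lowest for 23 of the 34 genes and replicate 1 the highest for 19. Among the 2D libraries replicate 4 was the lowest for 19, and replicates 2 and 3 were the highest for 14 and 12. Fasn, Fads2 and Fads3 departed from this in the 2D group, where replicate 4 was the second highest for each of them. They were not alone in this. That library was also the second highest for Acaca and Acsl3, and the highest for 3 genes, Elovl6, Hsd17b12 and Acsl5. Without both libraries numbered 4 the log2 fold changes of Fasn, Fads2 and Fads3 were −1.02, −1.26 and −1.16 (limma adjusted p = 0.0902, 0.0250 and 0.0517). What else differed between these libraries, and its part in the results, was not tested.

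**Figure D5:**
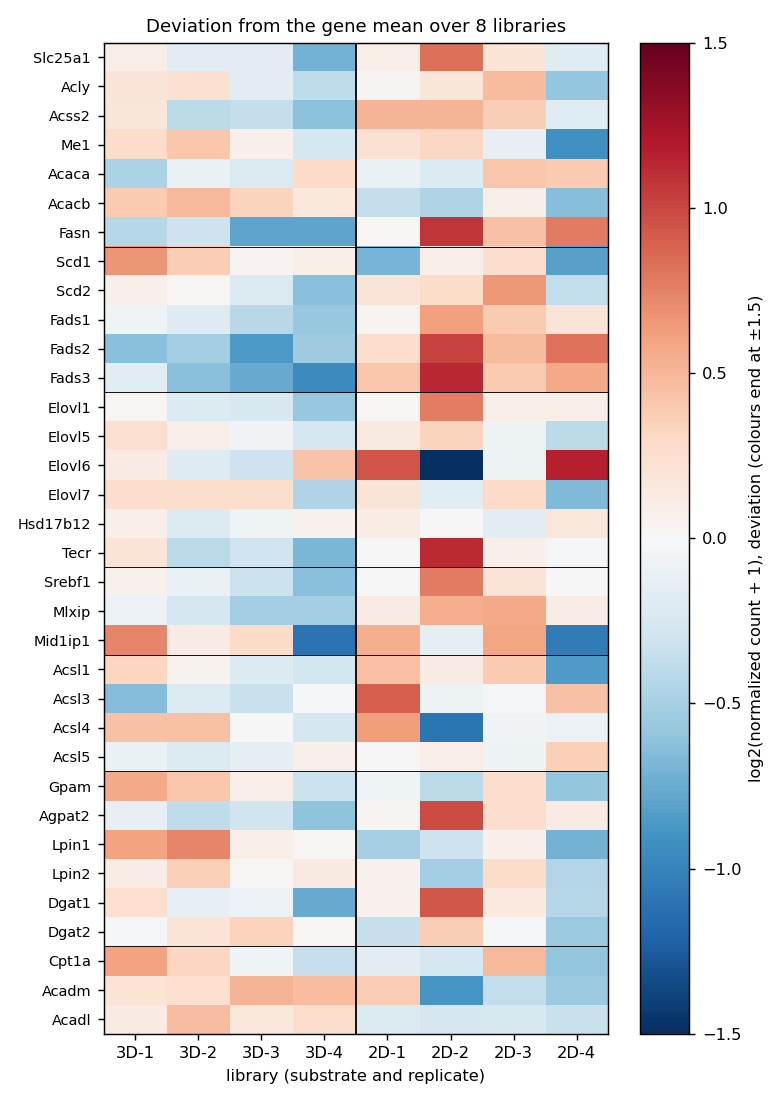
Colours give each library's deviation from the mean of the gene over all 8 libraries in log2(normalized count + 1), for the 34 tested genes in rows, with 3D libraries left and 2D libraries right of the black line. Fasn, Fads2 and Fads3 are below their means in every 3D library and above them in every 2D library, and 3D replicate 4 is the lowest 3D library for 23 genes.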

How the data were processed

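Gene expression was read from 8 deposited files, 1 per library, 4 per substrate. The submitters' processing notes name HTSeq 0.6.1p1, DESeq2 and the mm10 build. No source used here gives the aligner, annotation or strand setting. The deposited signal values are whole reads over a library's size factor: 100% of them came out whole within 0.001 reads, and the divisors matched recomputed median-of-ratios size factors within 3.4e-09. Positions, exon lengths and overlaps came from GENCODE M21 (GRCm38, the mm10 build), in which 22857 symbols were found, 1904 through an older symbol, and GC content was that of the longest transcript. The main test was limma 3.58.1 (R 4.3.3, trended and robust) on log2(normalized count + 1), which understates the change of low genes, over 11820 genes. edgeR 4.0.16 and DESeq2 1.42.0 were run on the recovered reads. These computations were tested on simulated counts. Ratios were tested with exact permutation tests (scipy 1.17.1). Alternatives were other scalings, pseudocounts (0.5 and 5), filters (none, or at least 50), a lowess GC correction (span 30%), a replicate block, and fits without some libraries. Any member could be named, with library values for those past the threshold and for the most abundant of each role. Library values of Acacb, Fads1, Scd1, Elovl6, Srebf1, Mlxip and Acadm, and of Plin2, were added after their values were seen. Companion lists gave up to 4 called genes each, or the most abundant where none passed. The members and lists were chosen with earlier results of these data known. One liver marker did not match a symbol. The values of 1 companion gene are not reported here.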

Additional observations from a re-analysis of the deposited data

Results flagged for a closer look

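In groups of 4 libraries, a library was marked where its gap to the nearest other, divided by the range of the group, exceeded Dixon's critical value. Of 84 groups examined 4 were marked, and chance marks about 1 in 20. On 3D collagen, Elovl7 was low in replicate 4 at 594 normalized counts. On 2D collagen, replicate 2 was high for Elovl1 at 3658, for Tecr at 13708 and for Cdipt at 7292.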

How the results depend on the processing

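Fasn, Fads2 and Fads3 kept their direction in all 22 alternatives and passed in 14, 21 and 18 of them, and Acadl kept its direction in all and passed in 7. All genes called were 275 higher and 401 lower. These counts became 498 higher with library size scaling, 708 and 871 in DESeq2, 482 and 605 after the GC correction, 171 higher without both libraries numbered 4, and 0 and 14 without the 3 libraries richest in intestine transcripts. The genes described here (1 higher, 3 lower) were 2 higher with library size scaling and 2 higher and 6 lower in DESeq2. After the GC correction 7 were lower and 1 higher, which was Acacb, while Acadl no longer passed. None was higher with a pseudocount of 5 or without the filter (0 each), 0 were higher and 1 lower without the libraries numbered 4, and 0 and 0 without the 3 libraries.

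In the glycerolipid list the higher count was 3 with library size scaling, and 0 without the libraries numbered 4 or the 3 libraries. Its lower count was 3 in DESeq2 and after the GC correction, 2 with the stricter filter, and 0 without the libraries numbered 4 or the 3 libraries. In the phospholipid list 2 were lower in DESeq2, and 1 with the stricter filter, after the GC correction and without the libraries numbered 4. In the SREBP list DESeq2 gave 1 higher and 5 lower, the GC correction 1 higher, and leaving out the 3 libraries 1 lower. In the oxidation list the higher count was 2 with library size scaling, 3 in DESeq2 and after the GC correction, and 0 without the libraries numbered 4 or the 3 libraries.

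The deviations of same-numbered libraries correlated at 0.37, 0.25 and 0.81 for numbers 2, 3 and 4 and at -0.17 for number 1. Libraries with unlike numbers correlated at -0.62 to 0.45, the highest being 3D replicate 1 with 2D replicate 2. Only number 4 exceeded every unlike pair. Since 1 of the 4 pairs did not exceed 0.1 and the labels name nothing that the numbers share, the libraries were treated as unpaired. With the replicate block 663 genes were higher and 742 lower, and 997 and 1078 with the GC correction as well. Of the genes described here the block left 0 higher, and with the GC correction 2 were higher (Acacb and Lpin1) and 8 lower. With the block the glycerolipid list had 2 lower, the phospholipid list 1 lower, the SREBP list 1 higher and the oxidation list 2 higher. With block and GC correction the glycerolipid list had 2 higher and 3 lower, the phospholipid list 2 lower, the SREBP list 3 higher and 5 lower, the oxidation list 3 higher and the further elongation and activation list 1 higher and 1 lower. The ratios had p = 0.125 in an exact sign-flip permutation of the 4 pairs, the smallest it can give.

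Leaving out 1 library at a time gave 44 to 267 higher and 104 to 370 lower genes in all, and 0 to 1 higher and 1 to 3 lower among the genes described here. It gave 0 to 1 higher and 0 to 2 lower in the glycerolipid list, 0 to 1 lower in the phospholipid list, 0 to 1 higher and 2 to 3 lower in the SREBP list and 0 to 1 higher in the oxidation list. Such fits have fewer libraries to test. The cause of the other changes was not tested. Mlxipl had too few reads to test.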

Other observations

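Over the 5 lists of other pathway genes, values of the substrates did not overlap for 27 of 104 genes tested (26.0%), against 18.4% of all genes tested. Of these 27 genes 6 passed and 21 did not, and 7 of the 21, chosen after their values were seen, are given here. Plin2, which coats lipid droplets, had 10659, 9568, 9007 and 9690 normalized counts on 3D, against 12739, 18398, 13758 and 15489 on 2D collagen (log2 fold change -0.62, limma adjusted p = 0.0516). Its fold change was opposite in sign to that of Plin5. Ppargc1a, a coactivator of mitochondrial genes, had 112 to 130.1 on 3D and 5.97 to 48.7 on 2D collagen (2.10, limma adjusted p = 0.0671). Etfa and Hadha, which work beside the acyl-CoA dehydrogenases, had log2 fold changes of 1.05 and 0.46 (limma adjusted p = 0.0813 and 0.0793). In the list of 25 other oxidation genes, values did not overlap for 5, of which 3 were higher and 2 lower. The 2 lower genes are not among those named. Mbtps1 and Scap, which act in the processing of SREBP, had log2 fold changes of -0.47 and -0.65 (limma adjusted p = 0.0544 and 0.0708). Pcyt2, of phosphatidylethanolamine synthesis, averaged 478 ± 43.0 on 3D and 719.9 ± 73.8 on 2D collagen (-0.59, limma adjusted p = 0.0502).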
